A study of Sus scrofa with 16 samples.

Results

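The regions described here are promoter regions of the pig genome in which accessible chromatin was called in every one of 6 newborn tissues. They were selected on the peak calls themselves. Consensus peaks of newborn spleen, heart, liver, kidney, lung and skeletal muscle on chromosomes 1 to 18 were pooled, and overlapping intervals were merged into 243693 union regions. Regions touched by a peak of all 6 tissues numbered 19559, which is 8.03% of the union regions, and 10397 of these (4.27% of all) also reached a promoter. A promoter ran from 2.2 kb upstream to 500 bp downstream of a transcription start site (TSS) of a protein-coding gene (PCG) in the RefSeq annotation of Sscrofa11.1. Since the newborn calls chose the members, their newborn values are given as a description and support nothing. Later liver lists, DNA sequence and gene annotation were not used in the choice.

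Chromatin accessibility had been measured by ATAC-seq, in which a transposase inserts adaptors into open DNA. The 16 libraries came from female crossbred pigs of a single cross (Berkshire and Tibetan). They formed 8 groups of 2 biological replicates, namely the 6 newborn tissues (day 0 in the labels, 1 day of age in the methods of the study) and 2 later ages of liver, suckling (28 days) and adult (180 days). Muscle was longissimus dorsi. According to those methods, 2 full sisters were taken per age, so the newborn tissues shared their animals and the liver ages did not. The authors deposited 1 list of consensus peaks for each pair of replicates, so a count has no replicate error. The lists hold no read counts, and the depth of the libraries was not used here. Peak strength is the −log10 p of the peak caller in each replicate, which depends on depth. Strength was therefore read as a percentile within a list, taken from the smaller replicate value. On chromosomes 1 to 18 the lists held from 54830 peaks in muscle to 135635 in liver at 28 days.

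The labels of 5 tissues were checked against genes known to be restricted to them, with the next highest newborn list beside each. Of 43 sarcomere and muscle genes, 41 had a promoter peak in newborn muscle and 26 in kidney. Heart had 25, no more than kidney, so this list does not set heart apart. In newborn liver 42 of 45 genes for plasma proteins of hepatocytes had one, against 27 in kidney. Spleen held a peak at 28 of 32 lymphocyte genes and newborn liver at 14. Kidney held one at 21 of 27 renal genes and newborn liver at 11. Lung held one at 19 of 20 genes of surfactant and airway epithelium and newborn liver at 10.

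A promoter is the stretch of DNA around a TSS on which RNA polymerase II and the general transcription factors assemble. Many mammalian promoters lie in CpG islands, where the dinucleotide CpG has been kept at a high density, and such promoters are commonly free of nucleosomes in many cell types. Genes for functions that every cell needs, such as translation, splicing and respiration, are known for promoters of this kind. Promoters of genes used in a single cell type more often have few CpGs, and some carry a TATA box.

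Promoters made up a growing share of regions as the number of tissues rose. They accounted for 3.81% (95% Wilson confidence interval 3.71 to 3.92) of the 137792 regions called in 1 tissue. The share was 5.52% for 2 tissues, 7.2% for 3, 9.82% for 4 and 15.5% (14.8 to 16.2) for 5. For 6 tissues it was 53.2% (52.5 to 53.9). The other 9162 regions of 6 tissues lay outside promoters, and 11929 promoter regions were called in 1 to 5 tissues. Intervals cover counting error only. Wider regions touch a promoter more easily, and the median width of promoter regions went from 305 bp for 1 tissue to 1433 bp for 6. The members spanned 194 to 4589 bp and covered 15.3 Mb. In 10305 of them (99.1%) at least 1 base lay under a peak of every newborn list. The number depends on which peaks are admitted. It was 2478 with peaks of an IDR of 0.05 or lower alone, and 5899 with the 54830 strongest peaks of each list.

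**Figure D1:**
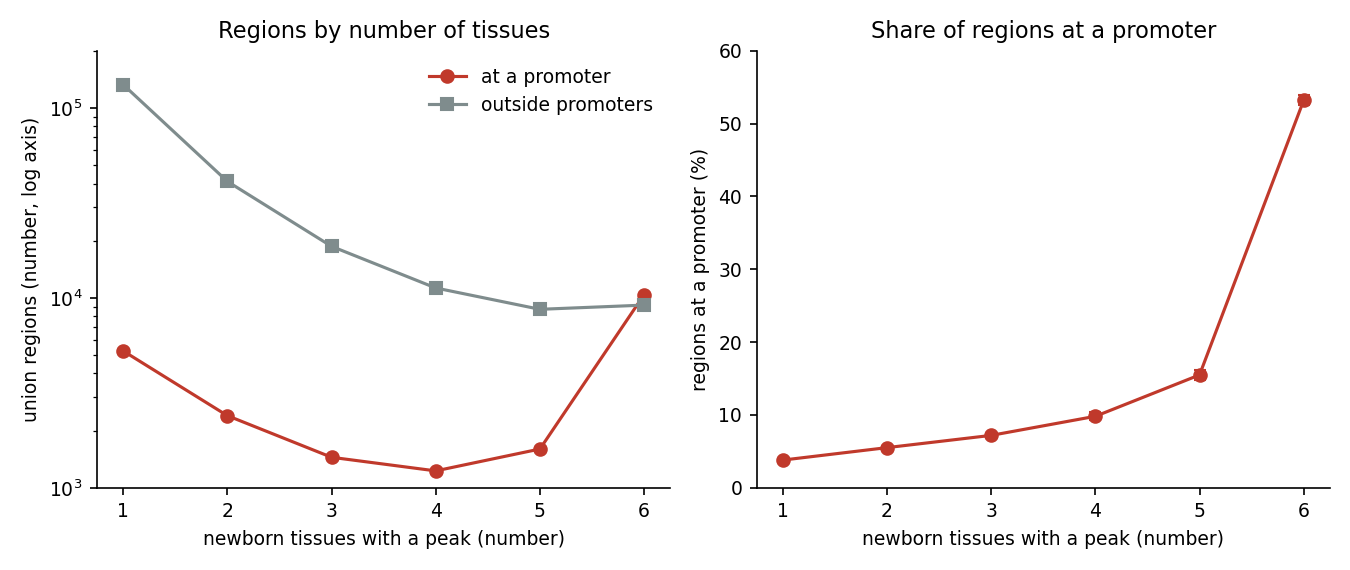
Left, the number of union regions (log axis) called in 1 to 6 newborn tissues, at a promoter (circles) or outside promoters (squares). Right, the share of regions at a promoter in percent with 95% Wilson intervals, which stood at 15.5% for 5 tissues and at 53.2% for 6.

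Of 18725 PCGs on these chromosomes, 10960 (58.5%) had at least 1 member at a promoter. The share by chromosome ran from 45.8% on chromosome 9 to 69.2% on chromosome 10. Genes with a symbol had one in 66% of cases, and genes known by a LOC number in 19.4%. Most members (8875, 85.4%) touched the promoter of 1 gene, 1496 touched those of 2 genes and 26 those of 3. The annotated start of the gene lay under the member in 9427 of the 10960 genes (86%). In the other 1533 the member reached the promoter window, or another TSS of the gene, without covering that start.

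The DNA of some strong members shows what the regions hold. Each line below gives 250 bases before to 50 bases after the annotated gene start in Sscrofa11.1 from RefSeq, read 5′ to 3′ on the strand of the gene. Capitals mark a short consensus that is known to bind a transcription factor of wide expression. The genes come from lists of basic functions and were those whose member had the highest lowest-list percentile among genes with the consensus. That the member covers the start, and that no gene serves for a second motif, were conditions added after the values were seen. EIF2AK3, the eIF2α kinase PERK, lies on the plus strand with its window at chr3:57423644-57423943, and the ETS site (CCGGAAG) starts at position -49. MRPL17, a protein of the large mitochondrial ribosomal subunit, is on the plus strand (chr9:3075736-3076035) with the NRF1 site at -56. GTF2E1, a subunit of the general factor TFIIE, is on the minus strand (chr13:139609434-139609733) and has 2 YY1 sites, the upstream one at -154. MCM10, needed to start DNA replication, is on the minus strand (chr10:48523872-48524171) with a cyclic AMP response element (CRE) at -7. NDUFA11 of respiratory complex I is on the plus strand (chr2:73130779-73131078) with the CGCG site at -6. COX7C of cytochrome c oxidase is on the plus strand (chr2:94345186-94345485) and holds the ZNF143 site at -72. ORC6 of the origin recognition complex is on the minus strand (chr6:37943901-37944200) with a GC box at -162.
EIF2AK3: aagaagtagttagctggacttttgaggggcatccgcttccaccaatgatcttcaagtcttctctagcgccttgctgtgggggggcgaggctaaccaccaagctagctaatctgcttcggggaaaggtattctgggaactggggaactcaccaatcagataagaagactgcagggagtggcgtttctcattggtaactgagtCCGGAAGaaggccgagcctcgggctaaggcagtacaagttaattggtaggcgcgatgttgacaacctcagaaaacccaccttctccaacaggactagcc
MRPL17: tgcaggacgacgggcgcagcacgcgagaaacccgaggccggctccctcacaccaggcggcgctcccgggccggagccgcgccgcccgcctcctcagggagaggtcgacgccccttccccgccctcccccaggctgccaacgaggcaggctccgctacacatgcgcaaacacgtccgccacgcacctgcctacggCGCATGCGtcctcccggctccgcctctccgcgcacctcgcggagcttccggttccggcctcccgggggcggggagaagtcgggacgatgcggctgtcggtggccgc
GTF2E1: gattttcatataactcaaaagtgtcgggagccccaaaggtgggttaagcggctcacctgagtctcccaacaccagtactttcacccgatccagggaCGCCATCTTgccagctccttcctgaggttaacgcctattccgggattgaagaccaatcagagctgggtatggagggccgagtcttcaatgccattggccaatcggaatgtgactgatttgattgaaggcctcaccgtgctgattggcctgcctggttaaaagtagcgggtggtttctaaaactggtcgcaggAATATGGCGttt
MCM10: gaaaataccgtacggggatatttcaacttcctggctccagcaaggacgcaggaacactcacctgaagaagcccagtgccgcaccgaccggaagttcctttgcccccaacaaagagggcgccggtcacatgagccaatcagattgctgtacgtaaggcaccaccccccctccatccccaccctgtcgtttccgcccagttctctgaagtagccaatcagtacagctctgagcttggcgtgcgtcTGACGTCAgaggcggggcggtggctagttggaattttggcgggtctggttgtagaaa
NDUFA11: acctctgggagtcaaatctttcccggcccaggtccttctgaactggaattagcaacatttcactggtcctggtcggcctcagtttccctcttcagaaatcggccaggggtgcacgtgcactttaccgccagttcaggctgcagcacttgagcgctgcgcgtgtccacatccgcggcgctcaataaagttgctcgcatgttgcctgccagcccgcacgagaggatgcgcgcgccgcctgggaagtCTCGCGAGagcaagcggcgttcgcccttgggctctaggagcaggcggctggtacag
COX7C: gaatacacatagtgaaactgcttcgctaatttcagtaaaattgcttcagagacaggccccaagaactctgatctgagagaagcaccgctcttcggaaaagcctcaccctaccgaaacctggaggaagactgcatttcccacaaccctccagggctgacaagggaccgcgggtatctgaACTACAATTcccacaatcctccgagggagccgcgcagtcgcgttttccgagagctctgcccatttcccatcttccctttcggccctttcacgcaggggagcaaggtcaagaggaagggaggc
ORC6: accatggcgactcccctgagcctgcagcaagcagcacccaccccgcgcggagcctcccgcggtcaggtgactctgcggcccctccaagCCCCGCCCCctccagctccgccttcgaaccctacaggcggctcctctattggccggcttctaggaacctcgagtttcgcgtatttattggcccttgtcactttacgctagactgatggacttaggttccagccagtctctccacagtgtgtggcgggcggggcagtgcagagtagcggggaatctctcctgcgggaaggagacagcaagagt

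Observed to expected CpG, which is 1 when CpG is as frequent as its bases predict, was 1.01 in the MRPL17 window with 42 CpGs, and 0.497 in that of EIF2AK3 with 10. It was 0.861 for NDUFA11, 0.7 for MCM10, 0.679 for ORC6, 0.648 for COX7C and 0.609 for GTF2E1. So 6 of these 7 windows reached 0.6, the limit used here for a high CpG content. Other consensus sequences stood beside the capitals. The CCAAT box of factor NF-Y was found in the windows of ORC6, EIF2AK3, GTF2E1 and MCM10, and the MRPL17 window also held a GC box and an ETS site, as did the MCM10 window an ETS site. All 7 regions had a peak at both later liver ages. The adult replicates of EIF2AK3 were unequal, with −log10 p of 5.04 and 378.

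A further pair of stretches is shown to show a layout and a contrast, and both were chosen after their values were seen. TMEM167A and XRCC4 start on opposite strands with 77 bases between their starts, set in capitals in a window of 300 bases on the plus strand (chr2:91358160-91358459). XRCC4 is a factor of DNA end joining and TMEM167A a Golgi protein. The stretch between the starts includes a CRE. ETS sites lie on either side of it in the window, and a CCAAT box follows it. KRT10 encodes an epidermal keratin, and its promoter had no region in any newborn tissue. Its window (chr12:21641013-21641312, plus strand) had 4 CpGs, an observed to expected CpG of 0.33 and a TATA box, set in capitals, at -20. The KRT10 window also held a CCAAT box and an E box (CACGTG).
TMEM167A/XRCC4: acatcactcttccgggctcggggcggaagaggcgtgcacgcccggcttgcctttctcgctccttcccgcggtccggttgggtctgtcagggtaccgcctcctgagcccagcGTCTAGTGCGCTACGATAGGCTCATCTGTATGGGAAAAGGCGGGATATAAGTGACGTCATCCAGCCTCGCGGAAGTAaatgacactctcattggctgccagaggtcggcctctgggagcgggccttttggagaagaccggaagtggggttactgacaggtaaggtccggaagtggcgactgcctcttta
KRT10: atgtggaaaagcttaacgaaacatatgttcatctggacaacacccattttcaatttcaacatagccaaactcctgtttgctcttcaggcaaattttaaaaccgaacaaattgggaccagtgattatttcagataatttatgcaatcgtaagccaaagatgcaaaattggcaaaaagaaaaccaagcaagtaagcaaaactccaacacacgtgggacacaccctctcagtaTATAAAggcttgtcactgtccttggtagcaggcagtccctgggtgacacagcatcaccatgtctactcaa

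The strongest members stood near the top of every newborn list. Ranked by the lowest of their 6 within-list percentiles, the leading 10 were at LEPROT, KBTBD8, WBP11, TIMM44, TMEM167A/XRCC4, CNST/TFB2M, ISCA2/NPC2, AASDHPPT/KBTBD3, DCBLD2 and CDKN3. Their lowest percentiles ran from 99.8 to 100. At LEPROT (chr6:146986746-146988002), whose product acts on the cell surface level of the leptin receptor, −log10 p of replicates 1 and 2 was 199 and 159 in heart, 230 and 308 in kidney, 733 and 327 in liver, 200 and 496 in lung, 216 and 232 in muscle, and 361 and 442 in spleen. Liver replicate 1 and lung replicate 2 were the high libraries there. Whole-list medians were also unequal in both tissues, at 24.9 and 8.66 in newborn liver and 6.12 and 22.7 in lung. Later liver gave 272 and 401 at 28 days and 489 and 580 at 180 days, percentile 100 in both lists.

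Other leading members belonged to genes of mitochondria, splicing and the cell cycle. TIMM44 (chr2:71271030-71272230), part of the motor that imports proteins into mitochondria, had a lowest −log10 p of 129, a median of 192 and a highest of 617 over the 12 newborn libraries. WBP11 (chr5:57749173-57750604), a splicing factor, had 129, 209 and 598. KBTBD8 (chr13:48486125-48487492), an adaptor of the CUL3 ubiquitin ligase, had 133, 227 and 668. The pair CNST/TFB2M (chr10:19045949-19047133), the latter a mitochondrial transcription factor, had 124, 186 and 598. At ISCA2/NPC2 (chr7:97739717-97741056), genes for iron-sulphur cluster assembly and lysosomal cholesterol transport, they were 111, 243 and 526. CDKN3 (chr1:183792069-183793332), a phosphatase of cyclin-dependent kinases, had 115, 194 and 622. Of the 10, 9 had a percentile of at least 99.1 in both later liver lists. CDKN3 was the exception, with percentile 100 at 28 days and 58.7 at 180 days, where its replicates differed (21.3 and 541).

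**Figure D2:**
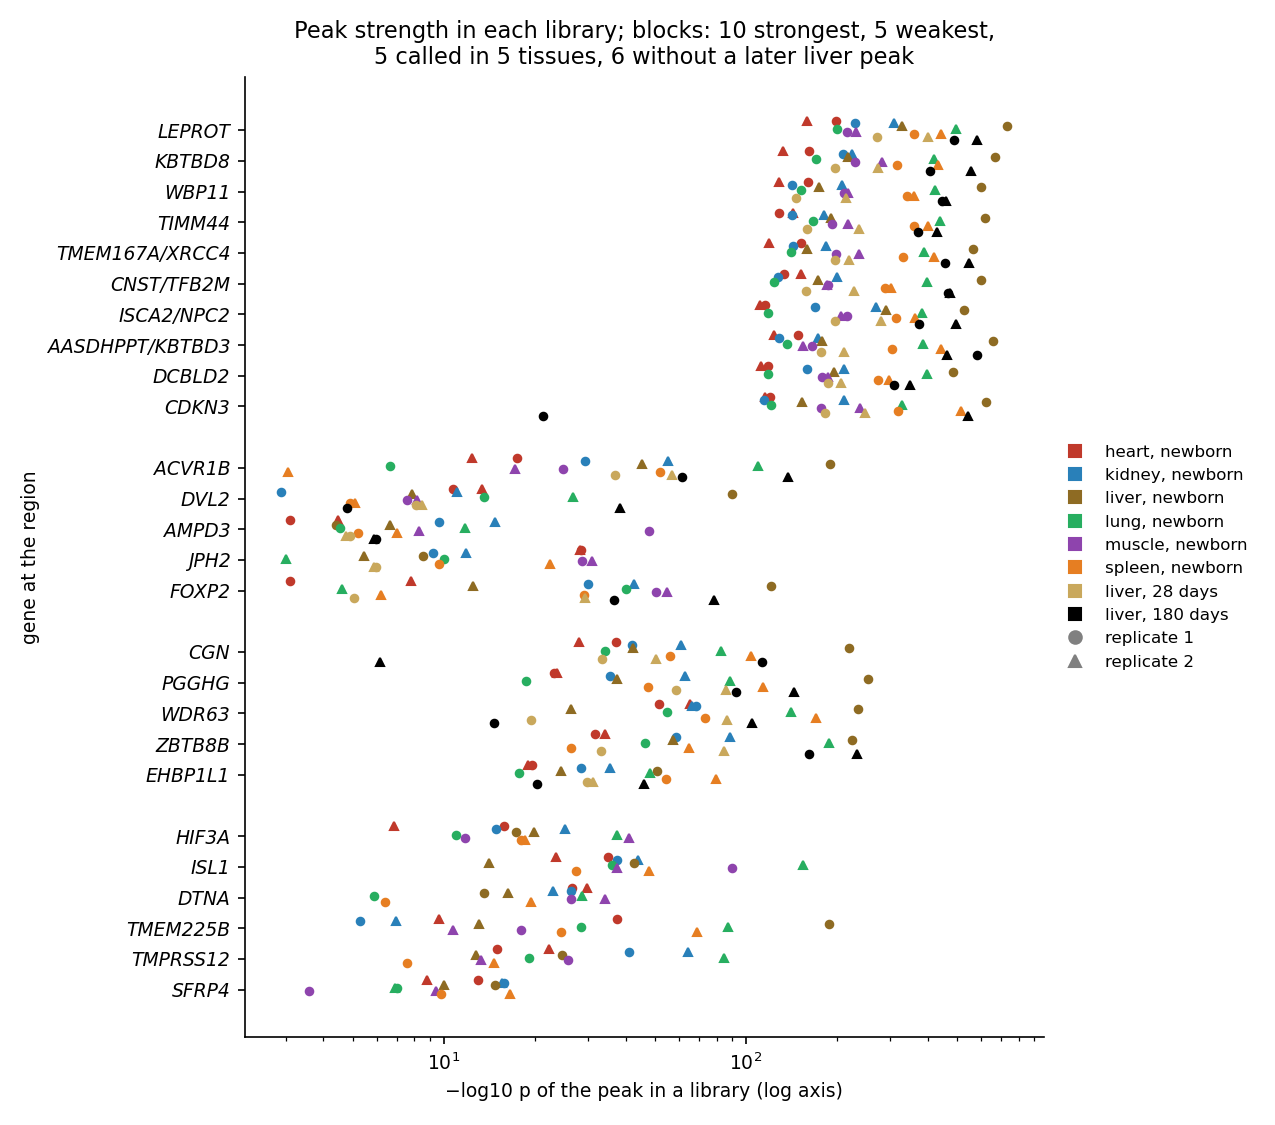
The −log10 p of the peak in each library (log axis) for named regions, with circles for replicate 1, triangles for replicate 2 and colours for the groups. From top to bottom, the blocks are the 10 strongest members (newborn values of 111 to 733), the 5 weakest, 5 promoter regions called in 5 newborn tissues and 6 members without a peak in later liver.

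Members ranked high in each list taken alone. Their median percentile was 78.2 in muscle, 88.1 in heart, 90.5 in newborn liver, 90.7 in lung, 91.1 in spleen and 92.5 in kidney. Regions of 6 tissues outside promoters had medians from 53.2 in muscle to 83.2 in kidney, and promoter regions of 1 to 5 tissues from 42.6 in heart to 52.2 in kidney. Peaks at members were wide, with medians of 955 bp in muscle to 1178 bp in kidney. An irreproducible discovery rate (IDR) of 0.05 or lower, which asks that a peak ranks alike in both replicates, was met in 57.8% (muscle) to 80.8% (kidney) of members, against 19.3% (liver) to 33.9% (kidney) of all peaks of the newborn lists. It was met in all 6 lists by 2481 members (23.9%) and in none by 295 (2.84%).

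The replicates of a member did not always carry the same strength. A smaller value below 10 beside a larger value of at least 50 was found at 4.85% of members in heart, 5.41% in kidney, 6.76% in muscle, 11.6% in spleen, 13.2% in newborn liver and 19.1% in lung. At these peaks the summits of the replicates lay a median of 319 to 385 bp apart in the newborn lists, against 27 to 69 bp at the other members. Percentiles from the smaller value are low for such peaks. With them, 4048 members (38.9%) were above the median peak in all 6 lists and 1447 (13.9%) in the top 10% of all 6. Percentiles from the larger replicate value gave 7469 (71.8%) and 2721 (26.2%). The median range of a member's percentile over the 6 lists was 55 points with the smaller value and 19.6 with the larger.

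The weakest members by the same ranking were at ACVR1B, DVL2, AMPD3, JPH2 and FOXP2. At ACVR1B (chr5:17313672-17314768), an activin receptor, replicate values were 17.5 and 12.4 in heart, 29.4 and 55 in kidney, 190 and 45.4 in liver, 6.65 and 109 in lung, 24.8 and 17.2 in muscle, and 52 and 3.06 in spleen. The low rank thus came from 1 spleen library. At AMPD3 (chr2:49075502-49077209), an AMP deaminase, values were low throughout, from 3.09 to 14.7 apart from 47.7 in muscle replicate 1. JPH2 (chr17:46664811-46665873) encodes junctophilin 2, which ties the calcium store of heart muscle to the plasma membrane. It had 28.5 and 28.3 in heart and 28.8 and 31 in muscle, and at most 22.5 in the other newborn libraries.

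Just outside the limit lay 1601 promoter regions of exactly 5 tissues. Muscle, whose list is the shortest, was the tissue without a peak in 1107 of them (69.1%), spleen in 214 and each other tissue in 48 to 86. The 5 highest ranked, at CGN, PGGHG, WDR63, ZBTB8B and EHBP1L1, all lacked a muscle peak, and their lowest percentiles over the other 5 lists ran from 84 to 89.8. At CGN (chr4:97729546-97730670), the tight junction protein cingulin, values reached from 27.9 in heart to 219 in liver, while the muscle list held no peak there. A peak that was not called is not a measured absence of accessibility.

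Within the members, 1 tissue could still lead. For this the percentile from the smaller replicate in a tissue was set against the percentiles from the larger replicate in the other 5, and genes were picked after these values were seen. Kidney, the longest newborn list, led by more than 10 points at 631 members, spleen at 149, lung at 144, heart at 82, liver at 80 and muscle at 25. In muscle, ALPK3, a kinase gene of heart and skeletal muscle, had 25.2 and 23.2 (percentile 79.1), with newborn liver next at 39.1. TTC9 had 58.8 and 55.4 in muscle (93), against 48.8 in lung. In spleen, TCF7, the T cell factor TCF1, had 43.7 and 81.3 (90.9), with heart next at 40.8. In liver, GAMT of creatine synthesis had 174 and 59.3 (96.1), against 68.6 in heart. In lung, RGMA, a co-receptor of bone morphogenetic proteins, had 14.8 and 21.5 (83.8), with spleen at 25.9. In kidney, PROKR1, a prokineticin receptor, had 15.4 and 20.4 (79.7), with heart at 23.3.

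Later liver, which the selection had not used, was examined next. A peak at 28 days was found at 10350 of 10397 members (99.5%, 99.4 to 99.7, from 98.5% to 100% over the 18 autosomes), where 76.4% of all newborn liver regions had one. At 180 days it was 10196 (98.1%, 97.8 to 98.3, from 96.4% to 99.2%), against 66.9% of all newborn liver regions. Both ages had a peak at 10177 members (97.9%), 173 had one at 28 days alone, 19 at 180 days alone, and 28 at neither. Regions of 6 tissues outside promoters had a peak in 96.2% (95.8 to 96.5) at 28 days and 91.8% (91.3 to 92.4) at 180 days. For promoter regions of newborn liver called in 5 tissues the shares were 93.5% (92.1 to 94.6) and 79.7% (77.6 to 81.6). For those called in liver alone they were 64.4% (61.8 to 66.9) and 64.3% (61.6 to 66.8).

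Members are wider and stronger than other regions, so single newborn liver peaks were compared as well. Of 11905 newborn liver peaks inside members, 97.3% met a peak at 28 days and 93.9% at 180 days. Of 10210 inside regions of 6 tissues outside promoters, 93.1% and 87.8% did. Newborn liver peaks were also split by the smaller replicate −log10 p into 3 parts of equal size. The other replicate can be much stronger, as at the 13.2% of members with unequal replicates in newborn liver. The split therefore does not make the classes equal in strength. In the weakest part (2.83 to 5.58), the share at 180 days was 77.3% (75.3 to 79.2) in members, 65.1% (62.8 to 67.2) in regions of 6 tissues outside promoters and 48.1% (46 to 50.1) in promoter regions of 1 to 5 tissues. In the strongest part (from 11.7) these shares were 99.1%, 97.3% and 89.9%. The order of the 3 classes was thus the same in the weakest and the strongest part, with a smaller gap in the strongest. In the later lists members had median percentiles of 92.5 at 28 days and 90.5 at 180 days. Regions of 6 tissues outside promoters had 81.8 and 65, and promoter regions of 1 to 5 tissues 59.1 and 52.5.

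**Figure D3:**
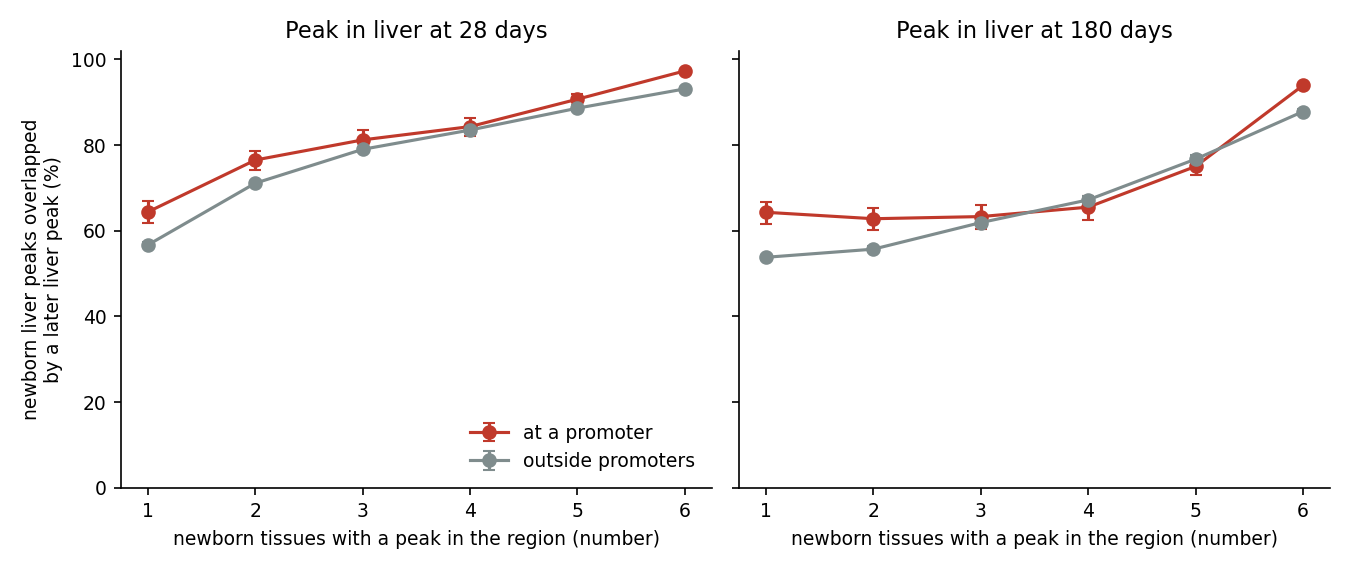
Share of newborn liver peaks, in percent with 95% Wilson intervals, that were overlapped by a peak of liver at 28 days (left) or 180 days (right), by the number of newborn tissues with a peak in the region. Red points are peaks in promoter regions and grey points peaks elsewhere, and at 6 tissues the red points stand at 97.3% and 93.9%.

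Among the 28 members with no later liver peak, those with the strongest newborn liver peak were at HIF3A, ISL1, DTNA, TMEM225B, TMPRSS12 and SFRP4. ISL1 (chr16:30962195-30963392), a LIM homeodomain factor of heart and motor neuron development, had 34.9 and 23.5 in heart, 37.3 and 43.9 in kidney, 42.6 and 14.1 in liver, 35.9 and 155 in lung, 89.8 and 37.3 in muscle, and 27.3 and 47.7 in spleen. Its percentile was at least 72.2 in every newborn list, and neither later list held a peak there. HIF3A (chr6:52345944-52346664), a member of the hypoxia-inducible factor family, had 17.3 and 19.9 in newborn liver (percentile 77.5). DTNA (chr6:118453024-118453766), a dystrobrevin, had 13.6 and 16.3 (71). SFRP4 (chr9:108413636-108414958), a secreted antagonist of Wnt, had 14.7 and 10 (61).

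Members with a peak at 28 days and none at 180 days included stronger ones, named here after their values were seen. DMRTA1 (chr1:200413072-200414585) had 211 and 59.7 in newborn liver and 50.6 and 51.5 at 28 days, percentile 96.1. ATL1 (chr1:180316335-180317603), the atlastin that shapes the endoplasmic reticulum in neurons, had 71.6 and 40.4 and then 40 and 71.1, percentile 94. GALNT5 (chr15:64241488-64243134), a transferase of mucin-type glycosylation, had 112 and 43.8 and then 15.8 and 46.4. PTGFR (chr6:134775805-134777456), the prostaglandin F receptor, had 74.6 and 33.2 and then 14.9 and 20.5. With 1 list per age and other animals at each age, age and animal cannot be told apart.

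Summits at members gathered at the TSS. In the 8 lists, 64.1% (liver at 28 days) to 69.8% (lung and liver at 180 days) of members had the summit of their strongest peak within 150 bp of the nearest annotated start. Medians lay -16 to -25 bp from it, where negative values are upstream. In promoter regions of 1 to 5 tissues the share within 150 bp was 24.3% in muscle to 34% in lung. Both classes had to overlap a promoter. Summits of 1 member also stayed close to each other across tissues, with a median distance of 104 bp between the outermost of the 6 newborn summits, against 122 bp in regions of 6 tissues outside promoters. The distance was within 150 bp in 61.8% and 56.9% of them.

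High CpG content marked the gene starts with a member. Windows of 300 bases with an observed to expected CpG of at least 0.6 were found at 8352 of 10959 such genes (76.2%, 75.4 to 77, from 71.1% to 82.7% over the autosomes). The share was 32.2% (30.9 to 33.6) for 4450 genes whose promoter regions reached 1 to 5 tissues and 12.1% (11 to 13.2) for 3313 genes with no promoter region, beside 54.4% of all genes. By the largest number of tissues at any promoter region of a gene, it rose from 17.1% at 1 tissue to 50.6% at 5. Median observed to expected CpG was 0.789 with a member, 0.406 with a region in 1 to 5 tissues and 0.259 without one. Where the member covered the annotated start, 84.3% (83.6 to 85) of starts were CpG-rich, and where it did not, 26.4% (24.3 to 28.7). Read the other way, 82% of CpG-rich starts and 30.5% of the others belonged to a gene with a member.

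Divergent gene pairs were frequent as well. In such a pair 2 genes start within 1 kb of each other on opposite strands and point away from each other, so that they share a promoter. Among genes with a member 1550 (14.1%, 13.5 to 14.8, from 9.23% to 18% over the autosomes) belonged to one, where the share over all PCGs was 8.81%. It was 1.82% (1.47 to 2.26) for genes with a region in 1 to 5 tissues and 0.573% (0.367 to 0.893) for genes with none. Of the 1650 genes in divergent pairs, 93.9% (92.7 to 95) had a member, against 55.1% of the others. A divergent pair offers a region 2 promoters to touch. Of the 10 strongest members 4 touched the promoters of 2 genes, among them AASDHPPT/KBTBD3 (chr9:35903151-35904561), where AASDHPPT primes carrier proteins with phosphopantetheine.

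Motifs at the gene starts were counted on both strands in the windows of 300 bases. Each was set beside its own letters in reverse order, which keep the base composition but not always the CpGs. Reversal takes the CpG out of the ETS site, the CRE and the E box, and leaves fewer in the CGCG site. It puts more into the CTCF core, the C/EBP site and the MYOD site, which are given further below. For these sites the reverse is not matched for CpG, which differs between the classes. The ETS site, CCGGAAG, was present at 17.1% (16.4 to 17.8) of genes with a member, 3.73% (3.21 to 4.33) of genes with a region in 1 to 5 tissues, 1.42% (1.07 to 1.88) of genes with none and 11.1% of all. Reversed, it was present at 5.75%, 4.4% and 3.35% of the 3 classes. The YY1 site, AANATGGCG, was at 4.29% of genes with a member, 0.382% and 0.362% of the other classes and 2.67% of all genes. Its reverse reached 0.255% of genes with a member. The NRF1 site, CGCATGCG, was at 3.2%, 0.517% and 0.332%, and at 2.06% of all, beside 0.182%, 0.0225% and 0% reversed. The CRE, TGACGTCA, was at 3.33%, 0.944% and 0.634%, and at 2.29% of all, beside 0.429%, 0.719% and 0.664% reversed. The CGCG site of ZBTB33 and BANP, CTCGCGAG, was at 1.85%, 0.36% and 0.0906%, and at 1.19% of all. Its reverse fell in the same order, at 0.931%, 0.697% and 0.241%. The ZNF143 site, ACTACAATT, was rare, at 0.584%, 0.0449% and 0.362%, with 0.417% over all genes and 0.073%, 0.157% and 0.332% reversed. Its share at genes without a promoter region was thus close to that of its reverse. An E box for USF and MYC, CACGTG, was at 9.76%, 6% and 3.95%, and at 7.84% of all, beside 4.29%, 5.33% and 3.2% reversed.

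The order of the classes was not the same for every motif. The CCAAT box was at 37% (36.1 to 37.9) of genes with a member and 29.1% (27.8 to 30.5) of genes with a region in 1 to 5 tissues. It was at 37.4% (35.7 to 39) of genes without a promoter region, with 35.2% over all genes. Its reverse was at 23.3%, 27.6% and 37.1% of these classes in the same order. The GC box of SP and KLF factors, GGGGCGGGG, reads the same reversed and so had no such control. It was at 28.2%, 16.4% and 3.83%, and at 21.1% of all. TATAAA was at 6.93% (6.47 to 7.43) of genes with a member, 12.2% with a region in 1 to 5 tissues and 21.8% (20.4 to 23.2) with none, beside 7.64%, 12.2% and 26.1% for its reverse and 10.8% of all genes with the motif. The AP1 site, TGANTCA, was at 4.18%, 7.64% and 10.3%, beside 3.67%, 5.55% and 8.45% reversed and 6.09% over all genes. The CTCF core, AGGGGGCGC, was at 2.83%, 2.29% and 0.362%, and at 2.26% of all, beside 1.3%, 0.854% and 0.181% reversed. The C/EBP site, TTGCGCAA, was at 0.292%, 0.112% and 0.0302%, and at 0.203% of all, beside 0.109%, 0.0225% and 0% reversed. The GATA site, AGATAAG, was at 1.51%, 2.79% and 3.41%, and at 2.15% of all, beside 1.19%, 1.82% and 2.72% reversed. The FOXA site, TGTTTAC, was at 2.41%, 2.67% and 3.32%, and at 2.63% of all, beside 2.2%, 3.01% and 5.4% reversed. The GATA and FOXA reverses thus rose in the same order as the motifs. The MYOD site, CAGCTG, was at 14.7%, 20.5% and 17.8%, and at 16.6% of all, beside 1.83%, 0.674% and 0.755% for its reverse, which holds a CpG that the motif lacks.

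CpG content differs between the classes and these motifs differ in CpG, so the counts were repeated among CpG-rich starts alone. There the ETS site was at 20.8% of genes with a member, 6.35% of genes with a region in 1 to 5 tissues and 4.25% of genes without one. Its reverse fell in the same order, at 5.97%, 3.28% and 2.75%. The YY1 site was at 5.26%, 0.837% and 1.25%, and the NRF1 site at 4.09%, 1.12% and 1.5%. Reversed, the YY1 site was at 0.287%, 0.209% and 0.75%, and the NRF1 site at 0.227%, 0.0697% and 0%. The CRE was at 4.2%, 2.02% and 1.25%, and the E box at 11.1%, 6.62% and 5.75%. Reversed, the CRE was at 0.371%, 0.349% and 0%, and the E box at 4.26%, 5.3% and 2.75%. The CCAAT box was at 36.6%, 21.1% and 30%, beside 20.2%, 17.9% and 39.5% reversed. The GC box was at 34%, 35.5% and 16%, and TATAAA at 5.15%, 5.72% and 8.25%, beside 5.12%, 4.74% and 10% for the reverse of TATAAA. The CTCF core was at 3.44% (3.07 to 3.85), 6.14% (5.01 to 7.5) and 2%, beside 1.62%, 2.16% and 0.75% reversed. It was thus lower with a member than with a region in 1 to 5 tissues, the opposite of the order over all starts. The FOXA site, lower with a member than with such a region over all starts, was at 2.12%, 1.19% and 2.75%. Intervals were compared between genes with a member and genes with a region in 1 to 5 tissues. Within CpG-rich starts they overlapped for the GC box, TATAAA and the FOXA site. They did not overlap for the ETS, YY1 and NRF1 sites, nor for the CTCF core.

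Positions differed between motifs. Per 100 genes with a member, ETS sites in bins of 50 bp rose from 0.95 at 325 bp upstream of the start to 6.22 in the last bin before it and 7.19 in the bin after it, and fell to 1.83 at 125 bp downstream. YY1 sites were most frequent after the start, with 2.14 and 1.96 in its 2 following bins against 0.44 in the bin before. CCAAT boxes peaked before the start, at 14.2 and 13.7 in the 2 bins that precede it against 6.49 in the bin after. At genes without a promoter region the fullest bin held 0.51 ETS sites from 325 bp upstream to 125 bp downstream. A match is a string of letters and not a measured binding site.

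**Figure D4:**
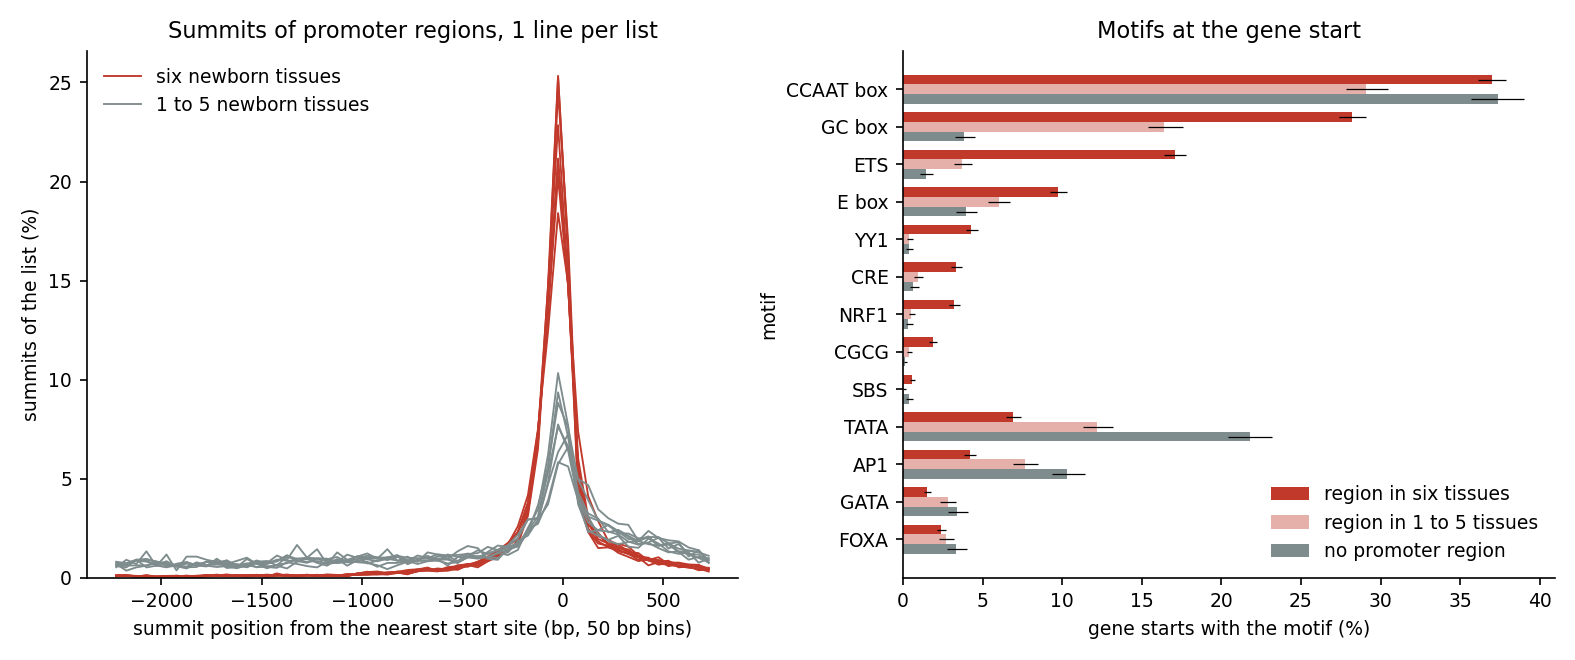
Left, positions of peak summits from the nearest start site (bp, negative upstream) as percent of the summits of a list, 1 line for each of the 8 lists, red for members and grey for promoter regions of 1 to 5 tissues. Right, percent of gene starts that hold each motif with 95% Wilson intervals for genes with a member, with a region in 1 to 5 tissues and with none, where ETS stands at 17.1%, 3.73% and 1.42%.

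Gene lists for basic functions had a member almost throughout. Over 15 such lists it was 602 of 627 genes (96%, 94.2 to 97.3), beside 58.5% of all PCGs, and 84.4% of these genes had a CpG-rich start. The share was 34.4% (15.4% of all PCGs) at an IDR of at most 0.05, and 56.9% (34.7%) with lists of equal length. All 47 genes of the respiratory chain and ATP synthase had one, with NDUFA2 and NDUFA4 ranked highest (lowest percentiles 99.3 and 98.5). So did all 44 genes named as translation initiation factors, a list that includes eIF2 kinases such as EIF2AK3, and EIF2S1, the alpha subunit of eIF2, led it together with that kinase. All 45 factors known to bind CpG-rich promoters had one, among them SP4 (98.6) and MAX (98.1), and all 16 circadian clock genes, with CRY1 (94.1) and PER2 (92.4) highest.

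Translation was covered on both sides of the mitochondrial membrane. A member was found at 72 of 73 cytosolic ribosomal protein genes, with RPS12 (lowest percentile 97.6) and RPS26 (97.2) highest, and at 72 of 74 mitochondrial ones, with MRPS18C (99.2) and MRPL18 (99.1). At RPS12 (chr1:30922786-30924507) −log10 p over the newborn libraries ran from 81 to 339 with a median of 115. The region of MRPL18 (chr1:7589054-7590766) is also that of TCP1, a subunit of the CCT chaperonin. Aminoacyl-tRNA synthetases had 34 of 36, with EARS2 and DARS highest, and splicing factors 51 of 52, with SF3B5 and LSM3. RNA polymerase II with its general factors and Mediator had 71 of 72, with GTF2E1 and MED13. DNA replication had 38 of 40, with MCM3 (99.5) and ORC6 (99.2). It also had the highest median of the lowest percentile over its genes, 76.9, against 23.8 for ubiquitin-conjugating enzymes.

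Degradation and transport lists were somewhat lower. Proteasome subunits had 35 of 38 genes, autophagy 27 of 29, the CCT chaperonin 8 of 9 and ubiquitin-conjugating enzymes 27 of 31. The highest ranked were PSMD14 (97.8), ATG16L1 (96.5), TCP1 (99.1) and UBE2K (90.3). The vacuolar ATPase, the proton pump of acidic organelles, had 15 of 21 (71.4%, 50 to 86.2), an interval that reaches below 58.5%. ATP6V1D and ATP6V1C1 were its strongest members, and the region of ATP6V1D is also that of EIF2S1. In each of the 15 lists every gene with a member also had a peak in liver at 180 days, as 98.1% of all members did.

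The 25 genes of these lists without a member fell into a few kinds. Some encode variants of a complex known for a single tissue. They include PSMB11 of the thymus proteasome, PSMA8 of the testis proteasome, and ATP6V1B1 and ATP6V0A4 of acid-secreting kidney cells. The first 3 genes of the vacuolar ATPase without a member, ATP6V0A4, ATP6V0D2 and ATP6V1A, had promoter regions in 2 or 3 tissues that included kidney. Others missed by 1 tissue. MRPL23, CDT1 and UBE2L3 lacked muscle, and so did MRPL53, while UBE2W lacked lung. TAF15 had regions in 4 tissues. For others a region of 6 tissues lay past the window, 1747 bp downstream of the annotated start of PSMD6, 1429 bp downstream of that of MARS2, 1682 bp for CDC6, 1570 bp for MRPL53 and 3530 bp for SRSF7. RPL18 is annotated at 2 loci. The one on chromosome 6 had a member and an observed to expected CpG of 1.09, and the one on chromosome 1, a gene model of 600 bp with 0.278, had a peak in spleen alone. Reads of near-identical copies cannot be assigned with certainty. The rest were MARS, CCT7, ATG9B, MAP1LC3C, UBE2D3 and UBE2U, and ATP6V1C2 and ATP6V1G3 of the vacuolar ATPase. Vacuolar ATPase genes past the first 3 were named after their values were seen.

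**Figure D5:**
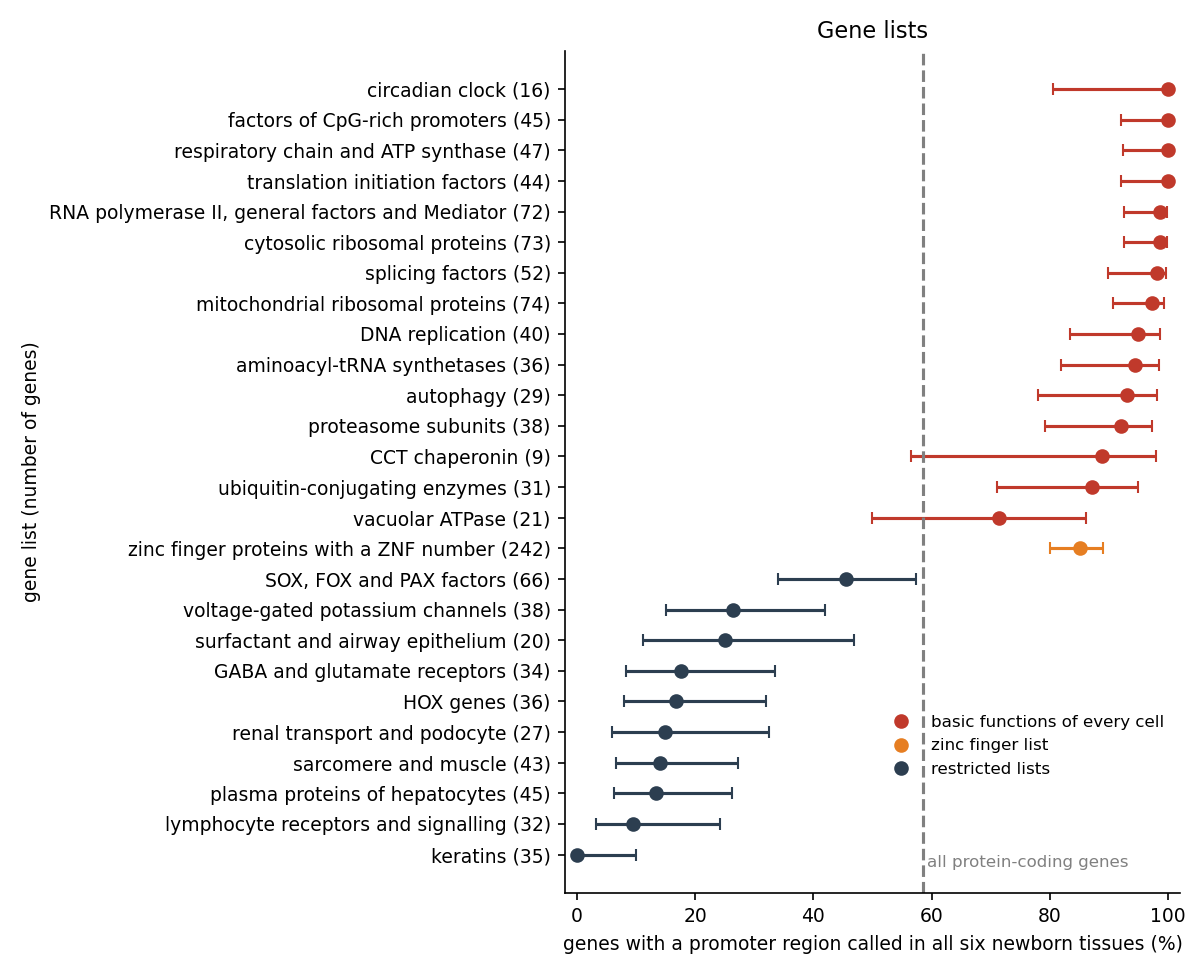
Share of genes with a promoter region called in all 6 newborn tissues, in percent with 95% Wilson intervals, for each gene list (number of genes in brackets). The dashed line marks all protein-coding genes at 58.5%. The 10 lists of restricted genes lie left of it, and among the 15 lists of basic functions the intervals of CCT chaperonin and vacuolar ATPase cross it.

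Lists meant for genes used in few cell types had a member in 74 of 374 cases (19.8%, 16.1 to 24.1), with a gene of 2 lists counted once. Of these, 30 were SOX, FOX or PAX factors, a list set by family name and not limited to factors of few cell types. The share of the 374 was 1.07% at an IDR of at most 0.05 and 8.56% with lists of equal length. With all peaks, a further 241 had a promoter region in 1 to 5 newborn tissues and 59 had none. None of 35 keratin genes had one (KRT1, KRT10 and KRT12 are the first without), for which the upper Wilson bound is 9.89%. No gene carried an olfactory receptor symbol of the searched form, so that list gave no value. Lymphocyte genes had 3 of 32, plasma proteins of hepatocytes 6 of 45, sarcomere and muscle genes 6 of 43 and renal genes 4 of 27. HOX genes had 6 of 36, receptors for GABA and glutamate 6 of 34, surfactant and airway genes 5 of 20 and voltage-gated potassium channels 10 of 38. ACTA1, ACTC1 and ATP2A1 of muscle, AFP, AHSG and ALB of liver, BLK and CCR7 of lymphocytes, AQP2, AQP6 and CALB1 of kidney, and AGER, CLDN18 and LAMP3 of lung were without a member. So were HOXA10, HOXA11 and HOXA13, GABRA2 and GABRA4, KCNA1, KCNA2 and KCNA10, and FOXA1, FOXA2 and FOXB1.

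The restricted genes that did have a member had median lowest percentiles of 3.43 to 32.9 per list, below the median of 36.7 over all members. Some lists of basic functions also lay below it, namely ubiquitin-conjugating enzymes (23.8), autophagy (30.1) and proteasome subunits (34.3). A CpG-rich start was present in 129 of the 374 genes, of which 39.5% had a member, against 9.39% of the other 245. Over all PCGs these shares were higher, at 82% and 30.5%. In 12 of the 74 genes every member at the promoter also touched the promoter of another gene, as at F12 (with GRK6), APOM (BAG6), TNNC1 (NISCH) and APOA2 (TOMM40L), examples picked after their values were seen. That is 16.2%, against 29.4% (177 of 602) for the genes of basic functions. The member covered the annotated start in 51 of the 74 (68.9%), against 94.4% of the genes of basic functions. GRIK5, a kainate receptor subunit, was the highest at percentile 95.7 (chr6:49839801-49840906), with −log10 p from 48.2 to 515 over the newborn libraries. TNNI3 of the cardiac troponin complex (89.8) and SLC5A1, the intestinal and renal glucose transporter (77.5), were the highest of their lists. Transcription factors of the SOX, FOX and PAX families had a member at 30 of 66 genes (45.5%, 34 to 57.4), led by FOXO3 (93.1) and FOXN2 (90.8).

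Zinc finger genes named with a ZNF number, many of which encode repressors of the KRAB class, lay between the groups. A member was present at 206 of 242 (85.1%, 80.1 to 89.1), and 66.5% of the genes had a CpG-rich start. Of the 206, 202 had a peak in adult liver, where 98.1% of all members had one. ZNF131 (chr16:27813794-27815395) and ZNF672 (chr2:52311459-52312937) were the strongest, with lowest percentiles of 99.3 and 98.7. ZNF114, ZNF132 and ZNF19 were the first in alphabetical order without one.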

How the data were processed

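ATAC-seq libraries had been made from frozen tissue by the Omni-ATAC protocol. The authors aligned paired reads to Sscrofa11.1 with Bowtie2 and used SAMtools 1.3.1 to drop duplicates, poorly mapped reads and those of the mitochondrial genome. They called peaks per replicate with MACS2 and kept those matched between both replicates by IDR. No exclusion of artefact regions is described in the sources used here. The deposited −log10 p values are those of the peak caller in each replicate, and the list value is the smaller of them. The deposited score is the IDR scaled by the authors, and a score of 540 stands for an IDR of 0.05.

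Peaks were merged and matched to RefSeq genes (release 106) by an overlap of at least 1 base, with Python 3.11.15, pandas 2.3.3, NumPy 2.4.6, SciPy 1.17.1, pysam 0.24.0 and matplotlib 3.10.9. No peak ran past a chromosome end. On simulated peaks, 33 of 33 checks gave the known answer. No test between groups was run, since each group is 1 list. Wilson 95% intervals are given for shares. Named regions were the 10 strongest, the 5 weakest, the 5 nearest outside, the 6 strongest in newborn liver without a later peak, the 2 strongest genes per list, and the genes of a list without a member (the first 3 by alphabet where more than 5). The members and lists were chosen with earlier results of these data known. Alternatives were a stricter IDR, equal list lengths, a narrower promoter, a shared base and each replicate alone. Some genes that the rule for named regions would give are not reported here.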

Additional observations from a re-analysis of the deposited data

Results flagged for a closer look

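Chromosome X was outside the selection and holds a signal of the same kind. There, 347 promoter regions were called in all 6 newborn lists, at 362 of 762 protein-coding genes (47.5%, 95% Wilson interval 44 to 51.1), and 340 of them had a peak in adult liver. The share over all newborn liver regions of this chromosome is not given. Dixon's rule for outlying samples could not be applied to groups of 2.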

How the results depend on the processing

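With peaks limited in each list to an IDR of at most 0.05, there were 2478 regions at 2892 genes (15.4% of all). Of these regions 92.4% had a peak in liver at 28 days and 94.8% at 180 days. CpG-rich starts made up 79.5% of the genes, divergent pairs 18.2%, and summits near a start 77.9%. The lists of basic functions fell to 34.4% and the restricted lists to 1.07%. Taking the 54830 strongest peaks of each list left 5899 regions at 6492 genes (34.7% of all), with 90.6% and 90% at 28 and 180 days, 70.1% for summits, 56.9% for basic functions and 8.56% for restricted genes. Both settings keep fewer peaks by construction, in the later liver lists as well. The share of all newborn liver regions with a later peak is not given under them. Whether members still stand above other regions there was not tested. A promoter of 500 bp upstream to 100 bp downstream gave 78.2% CpG-rich starts and 70.7% of summits near a start. A shared base under every list gave 67.3% of summits. Using the intervals of 1 replicate alone gave 62.3% to 62.7% of summits, against 66.9%. The share over all lists of basic functions stayed above that over the restricted lists under these settings. Single lists did not all stay above the share of all genes. Ubiquitin-conjugating enzymes fell below it, to 9.68% at an IDR of at most 0.05 (15.4% of all) and 25.8% at equal list lengths (34.7%). Factors of CpG-rich promoters had 15.6% at that IDR, close to all genes, and 53.3% at equal lengths. The other lists of basic functions lay above all genes in both. The count of members above the median peak in all 6 lists depends on the replicate used (38.9% or 71.8%), an alternative chosen after seeing the data. No paired analysis was possible because the results come from no test: membership is set by calls made on both replicates together. Read depth, which was not used here, limits which weak peaks could be called.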
